A study of Mus musculus with 4 samples.

Results

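The miR-29 family was followed in small RNA libraries of extracellular vesicles, small membrane-bound carriers shed by cells with RNA in them. Its rows are the 3p arms of miR-29a, miR-29b and miR-29c in a count table with a row for each mature miRNA copy, together with the 5p arm of each of their hairpins, taken as the row on the same strand within 60 bases. This gave 8 of the 2110 rows, which stand for 7 mature entries from 4 hairpins. The vesicles came from C2C12, an established mouse myoblast line labelled with a WT genotype in every library, grown with 10% fetal bovine serum and collected by differential centrifugation. The damaged group holds 2 libraries of cells treated with hydrogen peroxide, and the WT group 2 libraries whose treatment label is WT. Neither the peroxide dose nor its duration is given in the sources used here. All libraries come from 1 cell line, and whether replicates were cultured separately is not stated. The p-values therefore reflect only the spread among these 4 samples, and that spread may be technical. The question was which miRNAs differ in vesicles between damaged and healthy muscle cells.

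A miRNA is cut from a hairpin precursor as a short duplex, and as a rule 1 of its arms is loaded into an Argonaute protein and pairs through its seed, bases 2 to 8, with target mRNAs. The miR-29 family is known as a repressor of extracellular matrix genes, such as those of collagens, elastin and fibrillin, and of the DNA methyltransferases Dnmt3a and Dnmt3b. In mouse myoblasts it takes part in a loop with the transcription factors NF-kappaB and YY1, which repress it, and its level rises as the cells differentiate. Vesicle RNA is a different compartment from cell RNA, and only vesicles were measured here.

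The 3p arms are shown first because they share 1 seed and carry nearly all reads of the family. Sequences are RefSeq's for GRCm38.p6, the assembly that mm10 names, read 5′ to 3′ with the seed in capitals. All 8 rows matched a RefSeq entry at the same coordinates.
miR-29a-3p: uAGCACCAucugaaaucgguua
miR-29b-3p: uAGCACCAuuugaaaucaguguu
miR-29c-3p: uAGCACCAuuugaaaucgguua
Counted from 1 at the 5′ end, miR-29a-3p differs from miR-29c-3p at 1 position, C10U. miR-29c-3p differs from miR-29b-3p at G18A, U21G and A22U, and miR-29b-3p is 1 base longer. In human cells the last bases of miR-29b carry a signal for import into the nucleus, which miR-29a lacks. Among the 1734 rows with a RefSeq sequence, the seed AGCACCA occurred in the 4 rows of these 3 miRNAs and in no other.

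The 5p arms, shown because their share of reads is compared below, have a different seed in each hairpin.
miR-29a-5p: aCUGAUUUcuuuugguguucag
miR-29c-5p: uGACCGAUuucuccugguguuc
miR-29b-1-5p: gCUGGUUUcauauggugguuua
miR-29b-2-5p: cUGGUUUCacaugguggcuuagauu
miR-29b-2-5p starts 1 base further into the arm than miR-29b-1-5p, and the pair agrees at 19 of 21 aligned bases. miR-29c-5p starts 2 bases earlier than miR-29a-5p, with 17 of 20 aligned bases the same. These offsets change the seeds, and 1 row outside the family, miR-6338, has the seed of miR-29b-2-5p.

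The hairpins lie in 2 clusters, given here on mm10 (GENCODE vM21). On the minus strand of chromosome 6, Mir29b-1 (chr6:31063023-31063093) and Mir29a (chr6:31062660-31062747) are 275 bases apart, and no other annotated gene covers their mature arms. On the plus strand of chromosome 1, Mir29b-2 (chr1:195037040-195037120) and Mir29c (chr1:195037547-195037634) are 426 bases apart. They lie within an exon of the non-coding host gene A330023F24Rik and, on the opposite strand, within an untranslated exon part of Cd46, a complement-regulating membrane protein. The counting command held no strand option, so reads of these rows and of Cd46 on the other strand cannot be told apart. The precursors of the chromosome 6 cluster are shown with both mature arms in capitals, to place the arms within the stem-loop.
Mir29a: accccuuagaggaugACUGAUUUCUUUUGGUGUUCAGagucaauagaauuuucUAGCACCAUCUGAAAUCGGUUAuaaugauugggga
Mir29b-1: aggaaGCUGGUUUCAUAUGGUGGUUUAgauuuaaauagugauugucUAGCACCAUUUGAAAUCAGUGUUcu

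Libraries held 6901394 and 7350345 counts in damaged vesicles and 4577668 and 7638663 in WT vesicles, with 692 to 746 rows at 1 count or more. Levels are CPM, counts scaled to a common library size, with TMM as a correction for library make-up. They are relative to the counted miRNA reads, so the absolute amount of a miRNA, per vesicle or per cell, was not measured. miR-206-3p, a miRNA of skeletal muscle and the most abundant row, took 33.9% and 36.6% of counts in damaged vesicles and 28.6% and 32.6% in WT vesicles. Of 7 tested rows of muscle markers, 3 rose, all of miR-133, against 4.1% of all tested rows. Of these 3, 2 are copies of 1 sequence, miR-133a-3p, and count separately here and in the median. The 7 rows had a median log2 fold change of 1.12, against 0.02 for all tested rows, and 1 row of the list, which shares bases with an opposite-strand entry, had 0 counts. miRNAs listed as markers of blood, liver, endothelium, neurons and epithelia summed to 5078 and 5949 CPM in damaged vesicles and to 7220 and 7500 CPM in WT vesicles. None of their 12 tested rows passed, and their median log2 fold change of 0.13 was above 0, so the lower sum does not hold for the list as a whole. The sum was weighted to abundant rows. The most abundant, a row of miR-92a-3p, had 1314 and 1661 CPM in damaged and 2266 and 2849 CPM in WT. The larger row of miR-16-5p had 1015 and 1315 CPM in damaged and 1537 and 1474 CPM in WT. For miR-451a the groups overlapped, at 1501 and 1386 CPM in damaged and 1684 and 1490 CPM in WT. The lower sum therefore does not show less signal from these tissues, and the source of miR-92a-3p and miR-16-5p was not tested. Of the list, 12 of 25 rows had 0 counts in every library. Of these 12, 8 share bases with an opposite-strand entry, among them miR-122-5p and miR-126a-3p. A 0 in such a row, here or among the muscle markers, cannot be read as absence, since the counting command held no strand or overlap option. Whether the lower marker sum in damaged vesicles has a part in the miR-29 values was not tested. Serum vesicles with miRNAs of the same sequence could not be told apart from those of the mouse cells.

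The family took about 0.2% of all counts in both groups, and most of it was miR-29a-3p. The 3p rows together held 0.239% (exact Clopper-Pearson 95% interval 0.236 to 0.243) and 0.190% (0.186 to 0.193) of counts in damaged vesicles. They held 0.192% (0.188 to 0.196) and 0.208% (0.205 to 0.211) in WT vesicles. Both WT libraries lay between the damaged ones. No molecular identifiers are mentioned for the reads, so such intervals cover counting error only.

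Levels fell into clear steps, which the plot of levels by library shows. Each mature arm is 22 to 25 bases long, so levels of different members were set side by side without a correction for length. Whether reads covered whole arms was not tested, nor was any unequal ligation of sequences. miR-29a-3p was the 49th most abundant row of the table by mean CPM. The summed rows of miR-29b-3p came next, then miR-29c-3p, each range below the lowest library of the step before. miR-29a-5p and miR-29c-5p followed, with ranges that overlap each other. miR-29b-1-5p and then miR-29b-2-5p were lowest, again without overlap between neighbours.

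**Figure D1:**
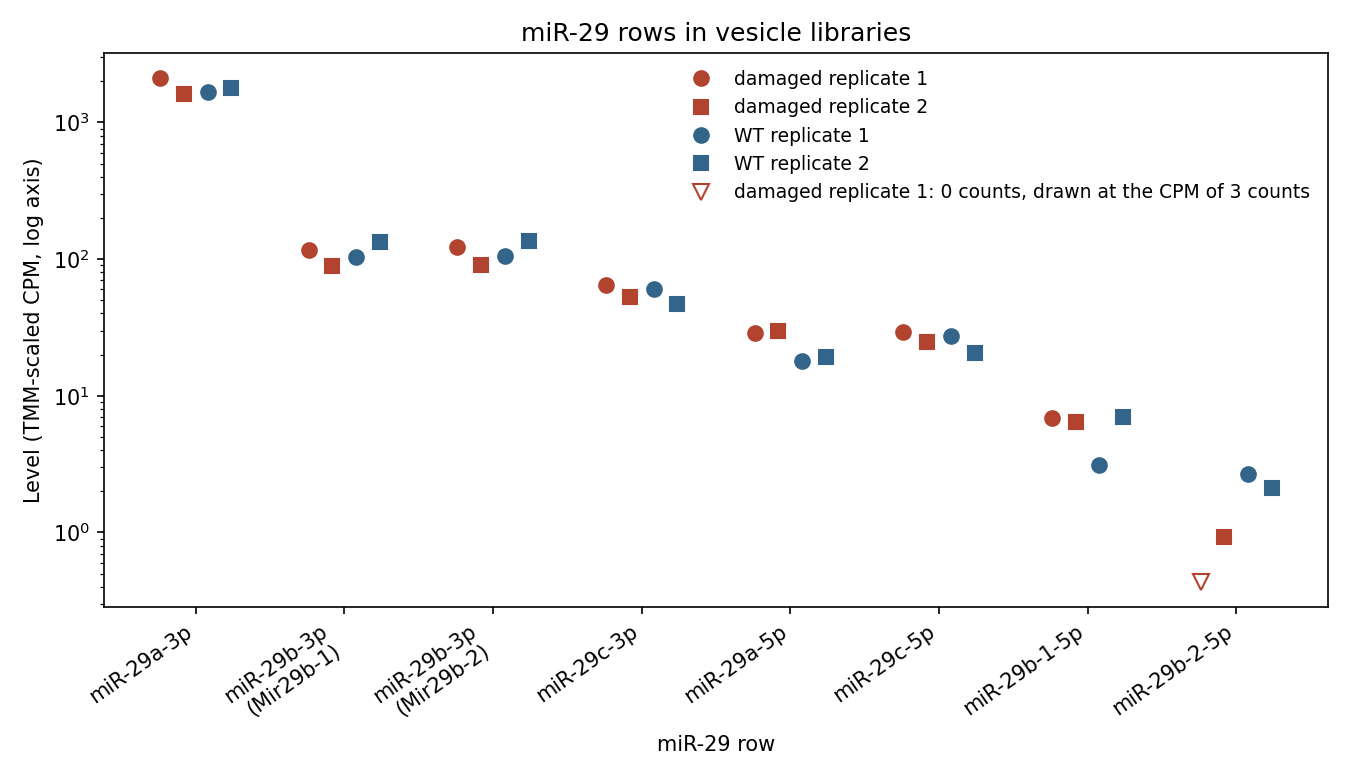
Level of each miR-29 row (TMM-scaled CPM, log axis) in 2 damaged and 2 WT libraries, 1 point per library, with an open triangle for the library at 0 counts, drawn at the CPM of 3 counts. The groups overlap in 6 rows. miR-29a-5p is higher in both damaged libraries than in both WT libraries, and miR-29b-2-5p is lower.

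None of the 8 rows passed the test between damaged and WT vesicles. All 8 were tested with edgeR's quasi-likelihood test over 536 rows, where 9.51% of tested rows had an adjusted p under 0.05. The smallest adjusted p of the family was 0.160, for miR-29a-5p, which also had the only unadjusted p under 0.05 (0.0484). DESeq2, which called 20.3% of the rows it tested, and limma-voom, which called 14.7%, passed none of the 8 either, with 0 and 1 at an unadjusted p under 0.05. In 2 of the 8 rows the groups did not overlap, against 59.9% of all tested rows. The family's median log2 fold change was 0.12, against 0.02 for all tested rows, with 5 rows above 0 and 3 below. A p above the threshold does not show that levels were equal, so the 95% interval of each difference is given.

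miR-29a-3p, the leading member (MIMAT0000535, chr6:31062673-31062694), had 14445 and 12190 counts in damaged vesicles and 7562 and 13490 in WT vesicles. On the CPM scale these were 2107 and 1621 in damaged and 1675 and 1772 in WT. Damaged replicate 1 was the highest and damaged replicate 2 the lowest of the 4 libraries, so the groups overlap. Means were 1864 ± 344 CPM in damaged and 1723 ± 68.5 CPM in WT (SD, n = 2 each). By edgeR, the log2 fold change of 0.11 had an SE of 0.16 and an adjusted p of 0.712. Its interval ran from -0.29 to 0.52, or 0.816-fold to 1.43-fold. The sign rested on single libraries, at -0.11 without damaged replicate 1 and -0.0050 without WT replicate 1.

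miR-29b-3p, whose mature sequence is encoded by Mir29b-1 and Mir29b-2, was counted in 2 rows of identical sequence (MIMAT0000127), at chr6:31063025-31063047 and chr1:195037091-195037113. The chromosome 1 row held 51.3% and 50.3% of these reads in damaged vesicles and 50.7% and 50.2% in WT vesicles, so the counts were split almost evenly and cannot be assigned to a locus. Summed, miR-29b-3p had 1636 and 1341 counts in damaged and 945 and 2056 in WT. That is 239 and 178 CPM in damaged vesicles and 209 and 270 CPM in WT vesicles. The highest library was WT replicate 2, the lowest damaged replicate 2, and the groups overlap. Summed, they differed by -0.19 ± 0.22 (SE) on the log2 scale, with a 95% interval of -0.75 to 0.37 and an adjusted p of 0.659 by edgeR. The single rows had -0.22 for Mir29b-1 and -0.19 for Mir29b-2. Without WT replicate 2 they stood at 0.015 and 0.026, and the Mir29b-2 row at 0.0088 without damaged replicate 2.

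miR-29c-3p (MIMAT0000536, chr1:195037600-195037621) had 446 and 399 counts in damaged vesicles and 275 and 357 in WT vesicles. Its levels were 65.1 and 53.1 CPM in damaged and 60.9 and 46.9 CPM in WT, with replicate 1 above replicate 2 in both groups and the groups overlapping. The log2 difference of 0.13 ± 0.24 (SE) had a 95% interval of -0.47 to 0.74 and an adjusted p of 0.799 by edgeR. Without damaged replicate 1 it was -0.038 and without WT replicate 2 it was -0.018. Since miR-29c-3p and miR-29a-3p differ by the single base C10U, misread miR-29a-3p could be counted as miR-29c-3p. For each 100 miR-29a-3p reads there were 3.09 and 3.27 miR-29c-3p reads in damaged and 3.64 and 2.65 in WT. The part of misread bases in these counts was not tested.

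miR-29a-5p, the partner strand of miR-29a-3p (MIMAT0004631, chr6:31062711-31062732), came nearest to the threshold. It had 198 and 222 counts in damaged vesicles and 81 and 147 in WT vesicles, or 28.9 and 29.5 CPM in damaged and 17.9 and 19.3 CPM in WT. Both damaged libraries lay above both WT libraries, as they did in 29.1% of the 536 tested rows. Means were 29.2 ± 0.453 CPM in damaged and 18.6 ± 0.967 CPM in WT (SD, n = 2 each). The log2 fold change was 0.65 ± 0.25 (SE), or 1.57-fold, with a 95% interval of 0.0067 to 1.29 and an adjusted p of 0.160 by edgeR. In the 12 other settings on all 4 libraries the adjusted p ran from 0.117 to 0.367.

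miR-29c-5p (MIMAT0004632, chr1:195037562-195037583) had 200 and 186 counts in damaged vesicles and 123 and 156 in WT vesicles. At 29.2 and 24.7 CPM in damaged and 27.2 and 20.5 CPM in WT, the groups overlap. The log2 fold change of 0.18 ± 0.29 (SE) had a 95% interval of -0.54 to 0.90 and an adjusted p of 0.754 by edgeR.

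The 5p arms of the miR-29b hairpins were rare. miR-29b-1-5p (MIMAT0004523, chr6:31063067-31063088) had 47 and 48 counts in damaged vesicles and 14 and 53 in WT vesicles, or 6.86 and 6.38 CPM against 3.10 and 6.96 CPM in WT. WT replicate 2 was the highest library and WT replicate 1 the lowest, and the log2 fold change of 0.38 had an interval of -1.09 to 1.84 (adjusted p = 0.746 by edgeR). The value was -0.15 without WT replicate 1 and 1.12 without WT replicate 2. miR-29b-2-5p (MIMAT0017063, chr1:195037050-195037074) had 0 and 7 counts in damaged vesicles and 12 and 16 in WT vesicles. The count of 0 allows up to 0.435 CPM in damaged replicate 1, and the other libraries stood at 0.931 CPM in damaged and at 2.66 and 2.10 CPM in WT. Both damaged libraries lay below both WT libraries, as in 30.8% of tested rows, and the row passed the filter on low counts through the WT libraries alone. Its log2 fold change of -2.28 had an interval of -6.14 to 1.57 (adjusted p = 0.372 by edgeR), and the value was -1.35 without damaged replicate 1.

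**Figure D2:**
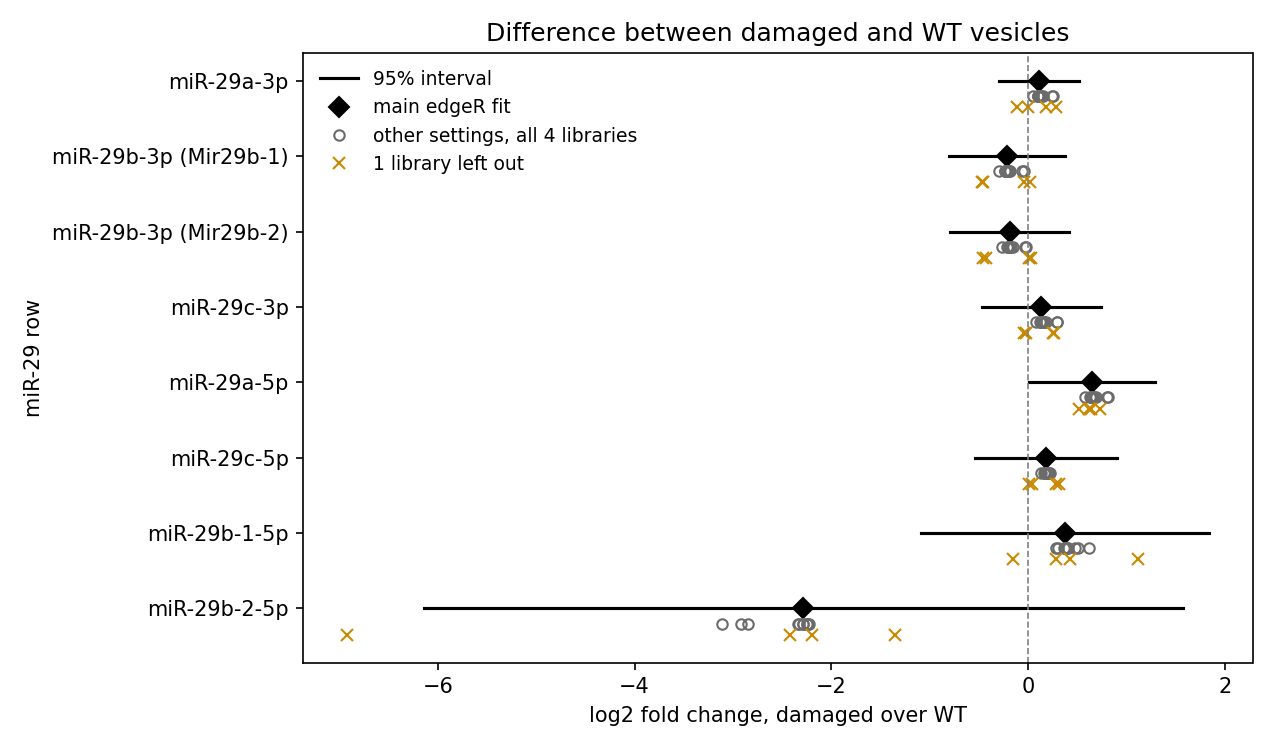
Log2 fold change of each miR-29 row, damaged over WT, on the horizontal axis. Diamonds are the edgeR values with their 95% intervals as lines, open circles the other settings on 4 libraries, and crosses the fits with 1 library left out. The intervals of 7 rows cross 0, and that of miR-29a-5p starts at 0.0067. The widest, of miR-29b-2-5p, runs from -6.14 to 1.57.

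The balance between members does not depend on scaling between libraries, and it leaned more to miR-29a-3p in both damaged libraries. miR-29a-3p made up 87.4% (95% interval 86.9 to 87.9) and 87.5% (86.9 to 88.1) of the miR-29 3p reads in damaged vesicles. In WT vesicles it made up 86.1% (85.4 to 86.8) and 84.8% (84.3 to 85.4). miR-29b-3p took 9.90% and 9.63% in damaged and 10.8% and 12.9% in WT, so its share was lower in both damaged libraries. miR-29c-3p took 2.70% and 2.86% in damaged and 3.13% and 2.24% in WT, where the WT libraries lie on either side of the damaged ones. There were 8.83 and 9.09 miR-29a-3p reads for each miR-29b-3p read in damaged vesicles, against 8.0 and 6.56 in WT vesicles, a 1.24-fold difference (exact two-sided permutation p = 0.333). That is the smallest p that 2 libraries against 2 can give. Groups that do not overlap were common in the table, in the CPM of 59.9% of all tested rows. WT replicate 2 stood furthest from the rest: without it the miR-29b-3p share differed by -0.998 percentage points, and without WT replicate 1 by -3.17, against -2.08 with all 4 libraries.

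**Figure D3:**
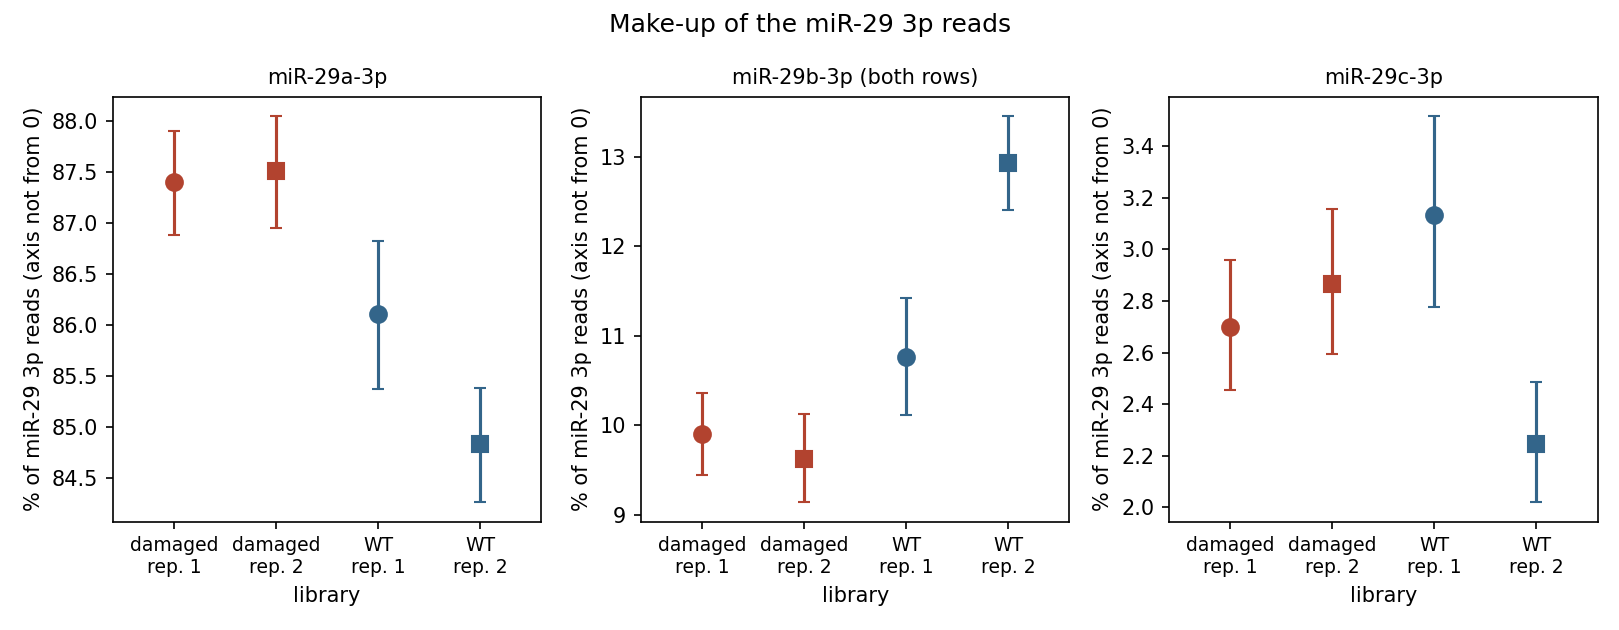
Share of miR-29a-3p, of miR-29b-3p with its rows summed and of miR-29c-3p among the miR-29 3p reads of each library, in %, with exact 95% intervals as bars. The vertical axes do not start at 0. miR-29a-3p lies above 87% in both damaged libraries and at 86.1% and 84.8% in WT, miR-29b-3p lies below its WT libraries in both damaged ones, and miR-29c-3p overlaps.

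The hairpins of miR-29a and miR-29c differed widely in how their reads were divided between the arms. In Mir29a the 3p arm had 73.0 and 54.9 reads for each 5p read in damaged vesicles and 93.4 and 91.8 in WT vesicles. In Mir29c it had 2.23 and 2.15 in damaged and 2.24 and 2.29 in WT. The 5p arm thus held 31.0% and 31.8% of Mir29c reads in damaged vesicles and 30.9% and 30.4% in WT vesicles, against 1.06% to 1.79% of Mir29a reads. The Mir29c ratio moved little while the ratio of miR-29a-3p to miR-29c-3p ran from 27.5 to 37.8 over the libraries. By mean ratio, Mir29a ranked 17th and Mir29c 49th of 121 hairpins whose arms both had more than 3 counts in every library. In 54 of these hairpins the 3p arm was the larger one.

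The 3p to 5p ratio of Mir29a was lower in both damaged libraries than in both WT libraries, by 0.55 on the log2 scale or to 0.684 of the WT value. The log2 difference was -0.75 without damaged replicate 1 and -0.34 without damaged replicate 2. The ratio did not overlap between the groups in 56.2% of the 121 hairpins and was lower in damaged in 25.6% of them, so a lower ratio in both damaged libraries was common. The Mir29c ratio also did not overlap, with a log2 difference of -0.049. For Mir29b-1 the ratio of its 3p row to its 5p arm was 17.0 and 13.9 in damaged and 33.3 and 19.3 in WT, but the reads of that row cannot be assigned to this hairpin. The log2 difference of -0.72 was -0.33 without WT replicate 1 and -1.12 without WT replicate 2. With the rows of miR-29b-3p summed against both 5p arms the values were 34.8 and 24.4 in damaged and 36.3 and 29.8 in WT, which overlap. Each exact two-sided permutation p of these ratios was 0.333 or above. In all, 18 shares and ratios were compared, many of them restating each other, and the groups did not overlap in 10. Such separation was as common elsewhere, in 56.2% of the 121 hairpin ratios and in the CPM of 59.9% of all tested rows. The count of 10 therefore marks nothing particular to the family.

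**Figure D4:**
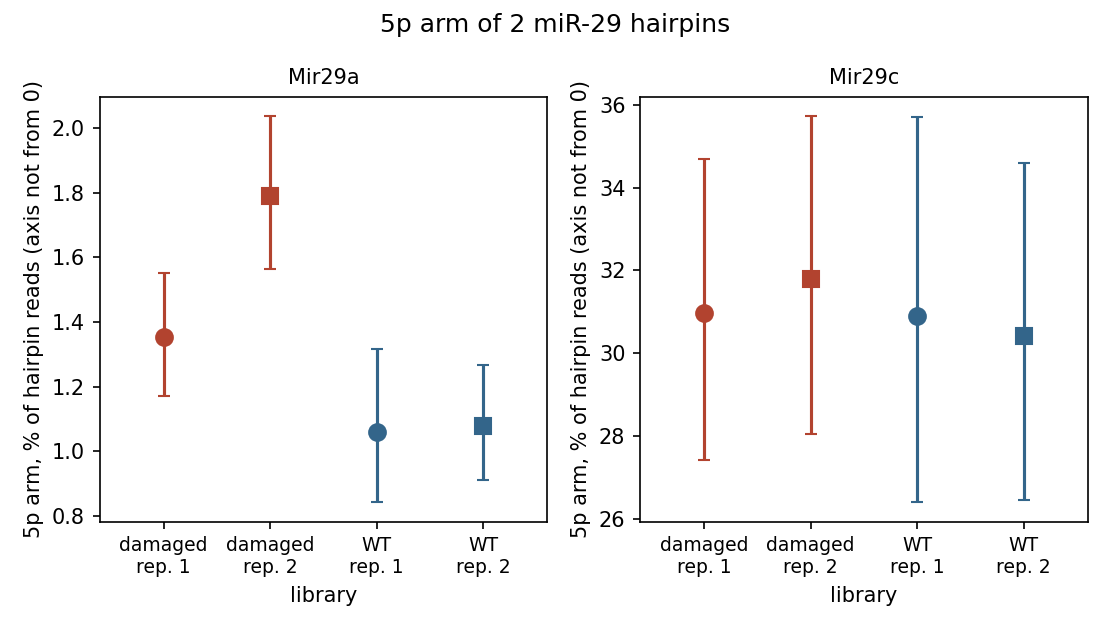
The 5p arm as a share of all reads of its hairpin, in %, for Mir29a and Mir29c in each library, with exact 95% intervals as bars. The vertical axes do not start at 0 and differ between the panels. Mir29a shows 1.35% and 1.79% in damaged and 1.06% and 1.08% in WT, while Mir29c stays between 30.4% and 31.8%.

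Rows of other miRNAs whose pattern over the 4 libraries was nearest to miR-29a-3p were miR-378c, miR-31-5p, miR-425-5p, miR-99a-5p and miR-423-3p. Nearness was the distance between mean-centred log2 CPM values, 0.16 for miR-378c and 0.22 for miR-423-3p, with a median of 0.66 over 156 other rows of at least 100 CPM. The nearest to miR-29c-3p were miR-127-3p, miR-378c, miR-99a-5p, miR-425-5p and miR-872-3p, at 0.17 to 0.19. Within the family the distance was 0.33 between miR-29a-3p and miR-29c-3p, and 0.36 between miR-29a-3p and the Mir29b-2 row of miR-29b-3p. miR-29a-3p was farther from its own partner miR-29a-5p, at 0.61. None of these nearest rows passed the edgeR test. Their choice by likeness to miR-29a-3p and miR-29c-3p, which did not pass, made that likely beforehand.

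Other miRNAs with related known roles were counted beside the family, in lists that overlap. These lists and the markers above were chosen with earlier results of these data known. A share of called rows that differs from that of all tested rows therefore cannot be taken as support for a list. Of 26 tested rows of miRNAs known for control of matrix or TGF-beta signalling, 2 rose, 5 fell and 19 missed the threshold. That list had a median log2 fold change of -0.23, against 0.02 for all tested rows, of which 4.1% rose and 5.41% fell. The 2 were the rows of miR-133a-3p, which restrains collagen and CTGF in the heart, with log2 fold changes of 1.14 and 1.12 (adjusted p = 0.00914 by edgeR for both). Those that fell included 2 rows of miR-199a-3p and 1 of miR-199b-3p, which share 1 sequence (-0.86 to -0.87). The others were miR-34a-5p of the p53-responsive miR-34 family (-0.69) and miR-15b-5p, a regulator of cell cycle genes (-1.52). The miR-34 family did not fall as a whole. Outside the list, miR-34b-3p rose by 3.05 on the log2 scale (adjusted p = 0.00351 by edgeR). miR-34b-5p, miR-34c-5p and miR-34c-3p had log2 fold changes of 0.41, 0.63 and 0.85, and none of them passed. The most abundant member, miR-21a-5p, a miRNA that rises in fibrotic tissue, had 121056 and 80689 CPM in damaged and 138842 and 119004 CPM in WT (adjusted p = 0.331 by edgeR).

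In the list of miRNAs that steer myoblast growth or differentiation, 5 of 26 tested rows rose and 3 fell, with a median of 0.23. Over all tested rows 4.1% rose and 5.41% fell, with a median of 0.02. Copies of 1 sequence count as separate rows here, as for miR-133a-3p, miR-125b-5p and miR-199a-3p. Both copies of miR-125b-5p, which slows myoblast differentiation, rose beside the miR-133 rows, by 0.75 and 0.78 on the log2 scale. The regulator miR-322-5p, which promotes exit from the cell cycle in myoblasts, fell (-1.33), as did the rows of miR-199a-3p. The calls over the whole table depended on which library was left out. By edgeR 30 rows passed without damaged replicate 2, while none passed without damaged replicate 1, WT replicate 1 or WT replicate 2, where 144, 103 and 124 rows had an unadjusted p under 0.05. Of miRNAs known, like the miR-29 family, for repressing DNA methyltransferases or Polycomb subunits, none of 10 tested rows passed and the median was 0.02. In that list miR-148b-3p came nearest, at 14.4 and 15.6 CPM in damaged and 42.5 and 30.5 CPM in WT (log2 fold change -1.28, adjusted p = 0.0531 by edgeR), and miR-143-3p was most abundant (-0.12, adjusted p = 0.635).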

How the data were processed

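Small RNA of vesicles from 2 damaged and 2 WT libraries was analysed. The deposited file holds raw read counts per mature miRNA row. The submitters' processing notes name FastQC, BWA, featureCounts and mm10. Per the file headers, version 2.0.1 of featureCounts counted features of type miRNA by ID, with no strand, multi-mapping or overlap option. How adapters were trimmed, and which BWA version and miRBase release served, is not given in the sources used here. Rows were named by their coordinates in RefSeq (1734 rows) or by GENCODE vM21 hairpins (364 rows). Groups follow the sample titles.

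Counts were fitted with edgeR 4.0.16 (R 4.3.3): TMM scaling, filterByExpr with a minimum count of 10, the quasi-likelihood test on a model of group alone, and Benjamini-Hochberg adjustment over all 536 tested rows at 0.05. The SE is the log2 fold change divided by the square root of F. Library totals of 4577668 to 7638663 counts mean that a count of 0 allows 3 counts, or 0.393 to 0.655 CPM. Shares carry exact 95% intervals. No share or ratio was given where the 5p arm had 3 counts or fewer. The code was tested on simulated data. There edgeR called 47% of 100 rows changed by 1 on the log2 scale and 68% of 100 rows changed by 2. It also called 1.79% of unchanged rows. Many real differences can therefore be missed with 2 libraries a group. Other settings were other scalings, no filter, a strict filter of 10 CPM in 2 libraries, DESeq2 1.42.0, limma-voom (limma 3.58.1), robust dispersion, a replicate block, a GC correction by loess, summed copies and leaving out each library. The text names every miR-29 row, the 5 nearest patterns to miR-29a-3p and miR-29c-3p, and called and most abundant members of the lists. Named after their values were seen were miR-148b-3p, miR-122-5p, miR-126a-3p, miR-16-5p, miR-451a and the rows of miR-34b and miR-34c. Members and lists were chosen with earlier results of these data known.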

Additional observations from a re-analysis of the deposited data

How the results depend on the processing

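No miR-29 row passed under any of the 16 other settings. Over the whole table, where edgeR called 51 rows, the count was 77 with upper-quartile scaling, 131 with no filter, 91 with the strict filter, 109 with DESeq2, 79 with limma-voom and 127 with the replicate block. Leaving out 1 library gave 0 to 30 calls by edgeR: 0 without damaged replicate 1, WT replicate 1 or WT replicate 2 (where 144, 103 and 124 rows had an unadjusted p under 0.05), but 30 when damaged replicate 2 was left out. No other tool was run on 3 libraries. No log2 fold change of a miR-29 row changed sign in the 12 settings on 4 libraries, the strict filter leaving out both 5p arms of the miR-29b hairpins. With 1 library left out they ran from -0.11 to 0.28 for miR-29a-3p, -0.47 to 0.015 for the Mir29b-1 row and -0.46 to 0.026 for the Mir29b-2 row of miR-29b-3p, -0.038 to 0.26 for miR-29c-3p and -0.15 to 1.12 for miR-29b-1-5p. miR-29a-5p (0.52 to 0.73), miR-29c-5p (0.012 to 0.32) and miR-29b-2-5p (-6.93 to -1.35) kept their sign, the -6.93 being a fitted value against a lone damaged library at 0 counts and no measure of size. The damaged minus WT difference of the miR-29 3p share was 0.014 percentage points (-0.011 to 0.039 with 1 library left out), and 0.042 without miR-206-3p in the denominator. With 1 library left out the log2 difference of the 3p to 5p ratio ran from -0.75 to -0.34 for Mir29a, -0.076 to -0.021 for Mir29c and -1.12 to -0.33 for Mir29b-1, whose value of -0.72 became -0.18 with the rows summed. The cause of these shifts was not tested. Same-numbered libraries did not deviate together (r = 0.003 over 536 rows). That value cannot show whether they shared a culture or a preparation, which the labels do not state. With the replicate block miR-29a-3p stood at 0.10, miR-29a-5p at 0.65 (adjusted p = 0.298) and no miR-29 call changed. Depth limits the 5p arms of the miR-29b hairpins, with 0 to 53 counts a library.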
